A study of Zea mays with 18 samples.

Results

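The genes described are 4 maize transcription factor genes that form 2 pairs of duplicates: ZmSCR1 (Zm00001d052380.RefGen_V4) and ZmSCR1h (Zm00001d005029.RefGen_V4), the SCARECROW pair, and NKD1 (Zm00001d002654.RefGen_V4) and NKD2 (Zm00001d026113.RefGen_V4), the NAKED ENDOSPERM pair. They were chosen by these B73 RefGen_v4 identifiers and not by a cut on their values, though with earlier results of these data known. All 4 were found among the 28724 genes of the deposited count table. RNA was sequenced from the quiescent centre (QC), the small group of slowly dividing cells at the root tip, of seedlings aged 5 days. The plants were wild type (WT), line S, which overexpresses the phytoglobin gene ZmPgb1.1, or line A, in which the same gene is down-regulated. Roots were taken under normoxia at 0 h (WT_0h, S_0h, A_0h) or after 12 h of hypoxia in a medium gassed with 4% oxygen (WT_12h, S_12h, A_12h), with 3 libraries in each of the 6 groups. The sources used here give neither the promoter of a transgene nor how many independent events a line holds. No group stood in air for 12 h, so time and oxygen cannot be told apart.

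SCARECROW proteins belong to the GRAS family of transcription factors. In the root, SCARECROW acts with SHORT-ROOT, a protein that moves outward from the stele, to set the identity of the endodermis, and in Arabidopsis it is also needed in the QC itself to keep the surrounding stem cells undifferentiated. ZmSCR1 and ZmSCR1h are duplicates that act redundantly in patterning the maize leaf. NKD1 and NKD2 encode zinc finger proteins of the INDETERMINATE DOMAIN family, named for the loss of normal aleurone in the mutant kernel, and relatives in Arabidopsis bind SCARECROW and SHORT-ROOT directly. Phytoglobins scavenge nitric oxide, which builds up in plant tissue when oxygen is scarce.

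Libraries held 35441975 to 89759585 counts. By Spearman correlation over all 20945 genes tested, 6 libraries had both of their nearest libraries in another labelled group: WT_0h replicate 2 (nearest to WT_12h), WT_12h replicate 3 (S_0h), S_0h replicate 3 (WT_0h), S_12h replicate 3 (A_0h), A_0h replicate 3 (A_12h) and A_12h replicate 3 (S_12h). The libraries thus fell into closed sets of 3, each with 2 libraries of 1 label and 1 of another. The second nearest library always correlated at 0.9964 or above, and the third at 0.991 or below. Whether labels were exchanged was not tested, and the labels were kept as given. The spread within a label over 18 libraries includes these 6. In 21 of 24 cases (4 genes in these 6 libraries) the level lay nearer to the mean of the 2 nearest libraries than to the mean of the other 2 libraries of its label, a share of 87.5% against 77.9% over all genes tested. The nearest libraries were picked by likeness over these same genes, so a high share is built in and is no separate result for the 4 genes. Because of the 6 libraries, the tests, ratios and correlations are given for all 18 libraries by label. They are given again for the 12 libraries that remain without these 6, which leaves 2 per group and was chosen after seeing the data. Leaving out libraries because they differ from their group lowers the spread by construction, so calls among the 12 are no separate support. Levels are counts of a gene per 1000000 counts of the scaled library size (CPM), and 3 counts equal 0.0339 to 0.0828 CPM. Markers of the QC and of neighbouring root cells, and the level of ZmPgb1.1, were not analysed here because no table at hand pairs their names with these identifiers, so neither tissue nor lines were checked against them.

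The SCARECROW pair was well detected in every library. ZmSCR1 had 1835 to 5857 counts per library. Its level was 42.3, 63.9 and 42.8 CPM in WT_0h replicates 1 to 3, and 66.2, 60.0 and 41.9 CPM in WT_12h. In line S it was 38.0, 43.2 and 42.2 CPM at 0 h and 43.4, 46.8 and 43.6 CPM at 12 h. In line A it was 42.3, 40.6 and 32.9 CPM at 0 h and 33.5, 31.1 and 50.6 CPM at 12 h. The 3 highest libraries were thus all WT, 1 of them from normoxia, and the 3 lowest were all line A, again 1 of them from normoxia. By mean ± SD (n = 3) the order was WT_12h (56.0 ± 12.6), WT_0h (49.7 ± 12.3), S_12h (44.6 ± 1.89), S_0h (41.1 ± 2.74), A_0h (38.6 ± 5.01) and A_12h (38.4 ± 10.7). The ranges of neighbours in this order overlapped, except those of S_12h and S_0h.

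ZmSCR1h, the duplicate of ZmSCR1, had 931 to 2375 counts per library and varied 1.63-fold between its lowest and highest library, against 2.13-fold for ZmSCR1. It measured 22.3, 27.5 and 21.3 CPM in WT_0h and 26.8, 30.3 and 19.8 CPM in WT_12h. The line S libraries held 19.1, 19.1 and 21.9 CPM at 0 h and 22.4, 25.8 and 29.5 CPM at 12 h. The line A libraries held 29.0, 29.0 and 19.8 CPM at 0 h and 18.6, 19.1 and 25.7 CPM at 12 h. Line S at 12 h lay above line S at 0 h in every library, while in line A the replicate 3 libraries of the 2 times stood on the opposite side from their replicates 1 and 2. Group means were close, from 25.9 ± 3.58 CPM in S_12h, 25.9 ± 5.31 in A_0h and 25.6 ± 5.35 in WT_12h through 23.7 ± 3.33 in WT_0h to 21.1 ± 3.95 in A_12h and 20.0 ± 1.64 in S_0h, and neighbours overlapped throughout.

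NKD1 had 1800 to 7396 counts per library and measured 81.5, 87.2 and 84.8 CPM in WT_0h and 83.0, 80.2 and 56.0 CPM in WT_12h. In line S it was at 60.0, 59.9 and 87.3 CPM at 0 h and at 46.1, 46.1 and 63.6 CPM at 12 h. In line A it was at 62.4, 61.1 and 47.1 CPM at 0 h and at 49.1, 55.5 and 49.7 CPM at 12 h. Of the 6 libraries above 80 CPM, 5 were WT and 1 was S_0h replicate 3. The order of means was WT_0h (84.5 ± 2.83), WT_12h (73.0 ± 14.9), S_0h (69.1 ± 15.8), A_0h (56.9 ± 8.48), S_12h (51.9 ± 10.1) and A_12h (51.4 ± 3.56), in which neighbours overlapped.

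NKD2 was read at far fewer counts than its duplicate, 60 to 407 per library. It measured 3.03, 2.96 and 3.39 CPM in WT_0h, and 3.82, 2.57 and 5.06 CPM in WT_12h. Line S held 5.12, 4.48 and 2.82 CPM at 0 h and 2.42, 2.45 and 3.76 CPM at 12 h. Line A held 2.84, 3.47 and 4.59 CPM at 0 h and 4.35, 3.82 and 1.66 CPM at 12 h. S_0h replicate 3 and A_12h replicate 3 lay further below the other libraries of their groups than those lay from each other, and the highest of the 18 libraries exceeded the lowest 3.09-fold. Group means ran from 4.14 ± 1.18 CPM in S_0h over 3.82 ± 1.24 in WT_12h, 3.63 ± 0.888 in A_0h, 3.28 ± 1.43 in A_12h and 3.13 ± 0.233 in WT_0h to 2.88 ± 0.767 in S_12h, and all neighbours overlapped.

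**Figure D1:**
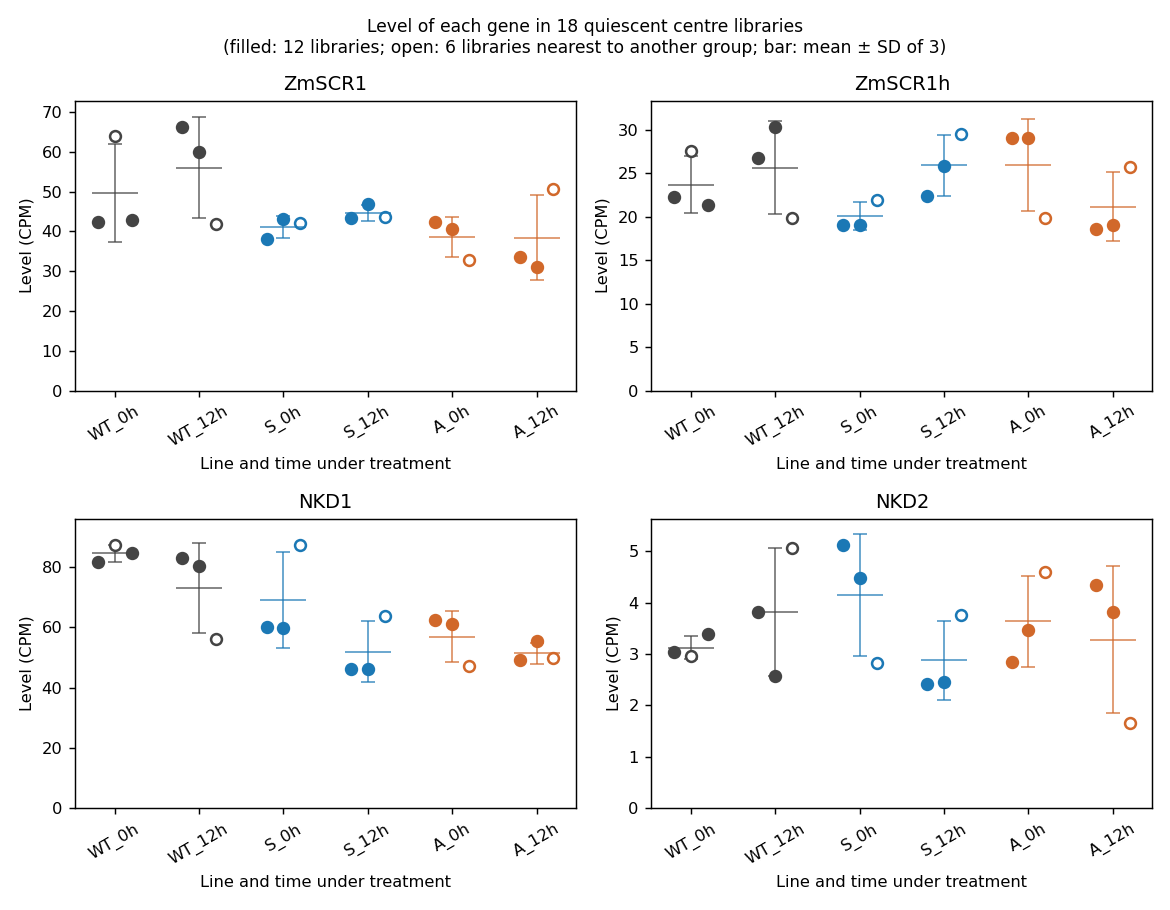
Level (CPM, y axis from 0) of each of the 4 genes in each of 18 libraries by labelled group (x axis), with filled points for the 12 libraries kept in both fits, open points for the 6 libraries nearest to another group, and bars for mean ± SD of 3. NKD1 was at 80.2 CPM or above in 5 of 6 WT libraries, and in NKD2 the open point was the highest or lowest of its 3 libraries in every group.

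The question put to hypoxia is whether 12 h of low oxygen changed these genes in each line. With all 18 libraries, none of the 4 genes passed the threshold (adjusted p under 0.05) in WT, line S or line A by edgeR's quasi-likelihood test, where 0.0%, 8.7% and 0.0% of all genes tested were called. DESeq2 also called none of the 4, beside 0.0334%, 18.2% and 0.859% of all genes. At an unadjusted p under 0.05 there was 1, NKD1 in line S, with a log2 fold change of -0.41 (SE 0.18, adjusted p = 0.149), and it passed without S_12h replicate 3 (log2 fold change -0.58, adjusted p = 0.0311). S_12h replicate 3 is 1 of the 6 libraries nearest to another group, and the share of all genes that passed without it is not given here. ZmSCR1h in line S measured 0.37 (SE 0.19, adjusted p = 0.206) and NKD2 in line S -0.52 (SE 0.36, adjusted p = 0.34). Both SCARECROW genes had line S groups that did not overlap, 12 h above 0 h. Groups did not overlap in 28.7% of all genes, counted in either direction, and the share with 12 h above 0 h is not given here. This is no basis for reading a change. In WT, the log2 fold change of ZmSCR1 was 0.17 with a 95% interval of -0.26 to 0.61, so changes within that interval were not resolved by these libraries. A lower level in these bulk samples cannot be told apart from fewer cells that express the gene.

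Among the 12 libraries (21030 genes tested), where the selection lowers the spread by construction, the SCARECROW pair had higher levels at 12 h in WT and lower levels in line A. ZmSCR1 was at 60.0 to 66.2 CPM in WT_12h against 42.3 to 42.8 CPM in WT_0h, a log2 fold change of 0.57 (SE 0.07, adjusted p = 1.46e-06), and ZmSCR1h measured 0.38 (SE 0.08, adjusted p = 0.000927). In line A the same genes measured -0.36 (SE 0.07, adjusted p = 0.000127) and -0.62 (SE 0.08, adjusted p = 1.27e-06). In line S only ZmSCR1h of the pair passed, at 0.34 (SE 0.08, adjusted p = 0.00137), with ZmSCR1 at 0.15 (adjusted p = 0.0636). NKD1 was lower at 12 h in line S (-0.38, SE 0.05, adjusted p = 5.88e-06) and line A (-0.24, SE 0.05, adjusted p = 0.000815) and measured -0.03 in WT (adjusted p = 0.742). NKD2 had the largest of these hypoxia responses, -0.97 in line S (SE 0.21, adjusted p = 0.000445), from 4.48 and 5.12 CPM to 2.42 and 2.45 CPM. Called members numbered 2 of 4 in WT, 3 of 4 in line S and 3 of 4 in line A, beside 29.2%, 54.9% and 59.5% of all genes.

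The difference of the hypoxia responses among the 3 lines was tested directly. With 18 libraries none of the 4 genes passed edgeR's test of the 2 interaction terms, none had an unadjusted p under 0.05 and none passed by DESeq2, while of all genes 0.1% were called by edgeR and 6.06% by DESeq2. The lowest adjusted p was that of ZmSCR1h (0.326), whose log2 fold changes at 12 h were 0.11 in WT, 0.37 in line S and -0.30 in line A. Among the 12 libraries all 4 passed (adjusted p = 1.98e-07 for ZmSCR1, 1.42e-07 for ZmSCR1h, 0.0017 for NKD1 and 0.00119 for NKD2), as did 66.5% of all genes.

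The altered phytoglobin lines were then compared with WT. NKD1 was lower in line A at 0 h, with every A_0h library below every WT_0h library, and its log2 fold change of -0.57 (SE 0.18, 95% interval -0.96 to -0.18, unadjusted p = 0.00677 and adjusted p = 0.0884 by edgeR) did not pass the threshold. DESeq2 called it (log2 fold change -0.56, adjusted p = 0.0342). At 12 h the A_12h and WT_12h groups of NKD1 did not overlap either, with 55.5 CPM in A_12h replicate 2 beside 56.0 CPM in WT_12h replicate 3, and the log2 fold change was -0.51 (SE 0.18, adjusted p = 0.101), which passed by DESeq2 (adjusted p = 0.0494) and without WT_12h replicate 3 (-0.67, adjusted p = 0.0367). Non-overlapping groups were found in 25.7% of all genes at 0 h and in 36.7% at 12 h. Line S at 12 h showed NKD1 at -0.49 against WT (SE 0.18, adjusted p = 0.0894), which passed without WT_12h replicate 3 (-0.65, adjusted p = 0.0357) or without S_12h replicate 3 (-0.66, adjusted p = 0.0181). The comparisons of A_12h and of S_12h with WT_12h share their WT libraries. WT_12h replicate 3 and S_12h replicate 3 are both among the 6 libraries nearest to another group. The share of all genes that passed without either is not given here.

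ZmSCR1 was the other gene with an unadjusted p under 0.05 between lines. In A_12h against WT_12h its log2 fold change was -0.55 (SE 0.21, unadjusted p = 0.0183, adjusted p = 0.115), and it passed without WT_12h replicate 3 (-0.72, adjusted p = 0.0467) or without A_12h replicate 3 (-0.80, adjusted p = 0.0432). Both of these libraries are among the 6 nearest to another group. The share of all genes that passed without either is not given here, so these passes are not read as particular to ZmSCR1. The remaining line comparisons of the SCARECROW genes lay between -0.36 and 0.37. NKD2 ran from -0.41 in S_12h against WT_12h to 0.40 in S_0h against WT_0h, with standard errors of 0.35 to 0.36, the widest of the 4 genes. In all, 0 of 36 pairwise tests (4 genes, 9 comparisons) passed by edgeR with 18 libraries, 5 had an unadjusted p under 0.05, and DESeq2 called 2. The share of all genes called by edgeR was 0.0% for S_0h and 3.32% for A_0h against WT_0h, 11.3% for S_12h and 6.47% for A_12h against WT_12h, and 1.82% at 0 h and 0.0% at 12 h between the lines A and S. For DESeq2 these shares were, in the same order, 0.0716%, 11.1%, 19.6%, 15.0%, 9.86% and 0.463%.

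Taking the 6 groups at once, NKD1 was the single member to pass, with an adjusted p of 0.0469 in edgeR's test of any difference, which called 12.8% of all genes, and of 0.00234 by DESeq2, which called 28.2%. The call was at the edge of the threshold. It ended with RLE scaling (adjusted p = 0.0507), without the low-count filter (0.0505), with the replicate number as a block (0.104) and when any 1 of 14 of the 18 libraries was left out, and held without WT_12h, S_0h, S_12h or A_0h replicate 3. Adjusted p was 0.234 for ZmSCR1, 0.392 for ZmSCR1h and 0.746 for NKD2. Among the 12 libraries all 4 genes passed this test, as did 86.1% of all genes.

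Without the 6 libraries, a selection that lowers the spread by construction, NKD1 measured higher in WT than in either line at both times. Its log2 fold change against WT was -0.47 in S_0h (adjusted p = 1.65e-06), -0.43 in A_0h (1.2e-06), -0.82 in S_12h (5.04e-11) and -0.64 in A_12h (3.98e-09), each with an SE of 0.05. ZmSCR1 did not pass at 0 h in either line and was lower than WT at 12 h, at -0.48 in line S (SE 0.07, adjusted p = 2.63e-06) and -0.97 in line A (SE 0.07, adjusted p = 2.26e-10). ZmSCR1h was higher in A_0h than in WT_0h (0.41, SE 0.08, adjusted p = 0.000259) and lower in A_12h than in WT_12h (-0.60, SE 0.08, adjusted p = 3.2e-06). NKD2 passed against WT only in S_0h, where it was higher (0.58, SE 0.20, adjusted p = 0.0487), the opposite side from NKD1 in those libraries. The called members were 2 of 4 in S_0h, 2 in A_0h, 3 in S_12h and 3 in A_12h, beside 20.1%, 49.2%, 58.5% and 47.0% of all genes. Between the lines, A against S, 2 of 4 were called at 0 h and 4 of 4 at 12 h, beside 54.3% and 47.6%. In that comparison NKD2 was at 0.75 (SE 0.21, adjusted p = 0.00552) and ZmSCR1 at -0.48 (SE 0.07, adjusted p = 5.86e-06) at 12 h.

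**Figure D2:**
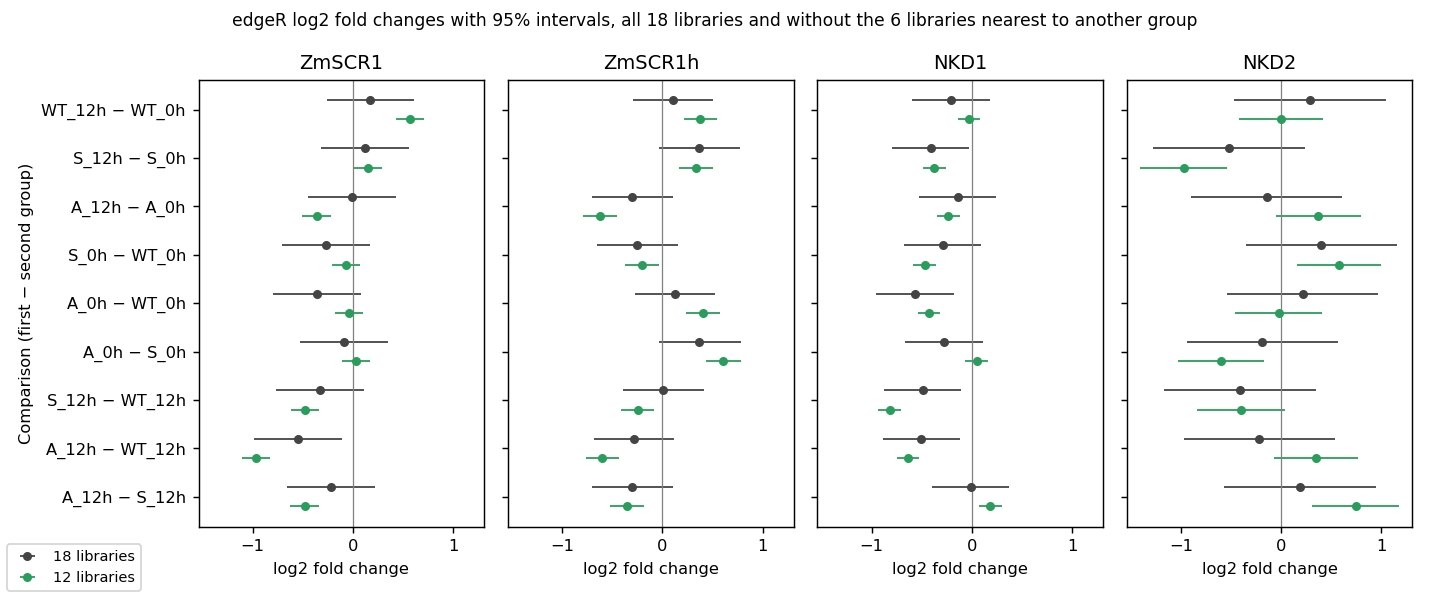
edgeR log2 fold change (x axis) of each gene in each of 9 comparisons (y axis, first minus second group), with 95% intervals, for all 18 libraries (grey) and for the 12 libraries without those nearest to another group (green). With 18 libraries no comparison passed after adjustment over all genes, and for 12 libraries the ZmSCR1 value reached -0.97 in A_12h against WT_12h.

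The balance between the 2 duplicates of a pair was compared within each library, as the log2 ratio of their counts, which needs no scaling between libraries. Because gene lengths of the annotation are not at hand, a ratio compares libraries and does not say which duplicate has more transcripts, and reads shared by the duplicates may have been split or dropped by the counting. ZmSCR1 took 58.3 to 71.1% of the pair's counts. The log2 ratio of ZmSCR1 to ZmSCR1h was 0.92, 1.21 and 1.00 in WT_0h and 1.30, 0.99 and 1.08 in WT_12h. It was 1.00, 1.18 and 0.94 in S_0h and 0.96, 0.86 and 0.56 in S_12h. It was 0.54, 0.48 and 0.73 in A_0h and 0.84, 0.70 and 0.98 in A_12h.

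Every line A library lay below every WT library of its own time, so by label the count of ZmSCR1 relative to ZmSCR1h was lower in these line A libraries. The mean difference was -0.37 on the log2 scale (exact two-sided permutation test within time, p = 0.005, the smallest p that 400 arrangements can give, adjusted p = 0.04 over 8 tests of ratios). The group means ± SD (n = 3) were 1.05 ± 0.15 and 1.12 ± 0.16 in WT at 0 h and 12 h, and 0.59 ± 0.13 and 0.84 ± 0.14 in line A. The permutation test takes the libraries of a time as independent and exchangeable, which may not hold where libraries resemble each other in sets. WT_0h replicate 2 and replicate 3 of WT_12h, A_0h and A_12h are in this test and are among the libraries nearest to another group. The gap at 12 h was narrow, with 0.98 in A_12h replicate 3 beside 0.99 in WT_12h replicate 2. Without WT_12h replicate 1, WT_12h replicate 3, A_12h replicate 1 or A_12h replicate 2 the adjusted p was 0.08. With the replicate number as a block it was 0.25 in an exact sign-flip test, which could hardly pass at that size. How many other gene pairs have ratios that separate these groups was not computed. Among single genes, 25.7% at 0 h and 36.7% at 12 h had levels that did not overlap between line A and WT. Among the 12 libraries the difference was -0.41, where the exact permutation test cannot go below p = 0.0556. Neither line S against WT (-0.17, exact permutation p = 0.13) nor line A against line S (-0.20, exact permutation p = 0.125), nor 12 h against 0 h (0.03, exact permutation p = 0.749) passed.

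NKD1 took 91.1 to 96.9% of the counts of its pair, and the ratio varied more than that of the SCARECROW genes. Its log2 value was 4.75, 4.88 and 4.64 in WT_0h, and 4.44, 4.96 and 3.46 in WT_12h. In line S it was 3.55, 3.74 and 4.95 at 0 h and 4.25, 4.23 and 4.07 at 12 h. In line A it was 4.46, 4.13 and 3.36 at 0 h and 3.49, 3.86 and 4.90 at 12 h. The WT_0h libraries were close together, whereas 1 replicate 3 library stood apart in each of WT_12h, S_0h, A_0h and A_12h. Differences were -0.39 for line S against WT (exact permutation p = 0.205), -0.49 for line A against WT (0.18), -0.10 for line A against line S (0.755) and -0.09 for 12 h against 0 h (0.743), with adjusted p of 0.328 to 0.755. Among the 12 libraries both lines lay below WT in every library of the same time, by -0.75 in line S and -0.71 in line A, each at the smallest p the exact permutation test allows there (0.0556, adjusted p = 0.111). The share of other gene pairs whose ratios separate in this way was not computed.

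**Figure D3:**
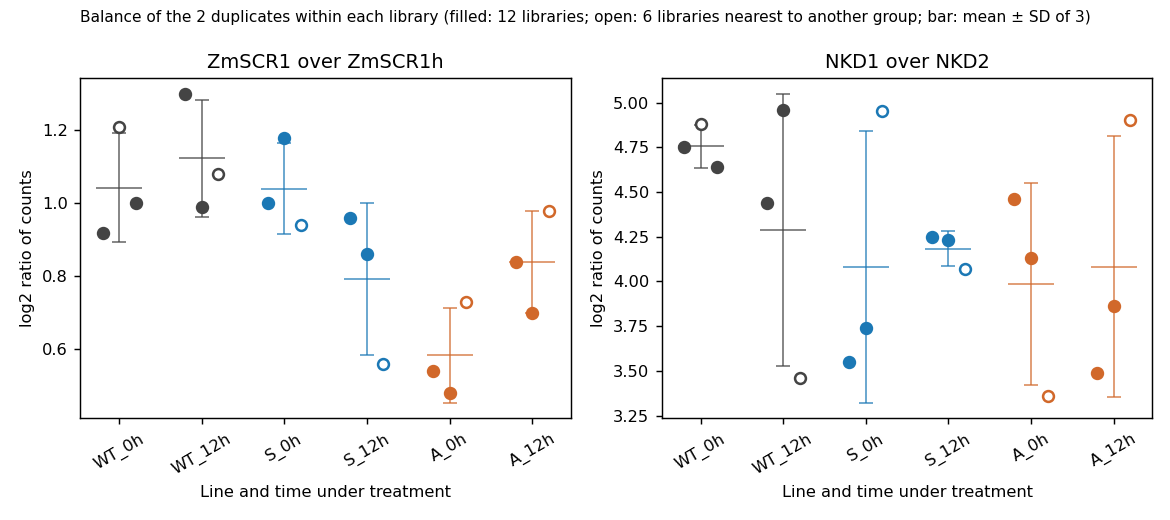
log2 ratio of the counts of the duplicates (y axis) in each library by group (x axis), with filled points for the 12 libraries, open points for the 6 nearest to another group, and bars for mean ± SD of 3. For ZmSCR1 over ZmSCR1h the line A libraries (0.48 to 0.98) lay below the WT libraries of the same time, and for NKD1 over NKD2 the open points were far from the filled ones in WT_12h, S_0h, A_0h and A_12h.

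The members of the pairs also differed in how far they moved together. Over the 18 libraries, ZmSCR1 and ZmSCR1h had a Pearson correlation of log2 CPM of 0.67 and a Spearman correlation of 0.67. ZmSCR1h was number 521 among the 20944 other genes ranked by Pearson likeness to ZmSCR1, and ZmSCR1 was number 685 for ZmSCR1h. NKD1 and NKD2 had a Pearson correlation of -0.03 and a Spearman correlation of -0.07, and NKD2 was number 10729 for NKD1, near the middle of all genes. Pearson correlations of NKD2 were -0.45 with ZmSCR1 and -0.55 with ZmSCR1h (Spearman -0.58 and -0.61). Those of NKD1 were 0.53 with ZmSCR1 and 0.31 with ZmSCR1h (Spearman 0.31 and 0.34). By Pearson likeness, NKD2 was number 17902 for ZmSCR1 and 18785 for ZmSCR1h, and NKD1 was number 1384 and 4947. In the ranking for NKD1, ZmSCR1 was number 3756 and ZmSCR1h number 6298, and in that for NKD2 they were numbers 18670 and 19836. Many genes lay as far out, so these values are not read as particular to the pairs. Among the 12 libraries the Pearson correlation was 0.67 for the SCARECROW pair and 0.05 for the NKD pair, and NKD2 was at -0.38 with ZmSCR1 and -0.64 with ZmSCR1h. These correlations are descriptions with no test, since the libraries resembled each other in sets and are not independent points. NKD2 varied more around its group means, with an estimated biological coefficient of variation of 32.3% against 16.4 to 18.5% for the other 3 genes. These estimates are over all 18 libraries and include the 6 nearest to another group.

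**Figure D4:**
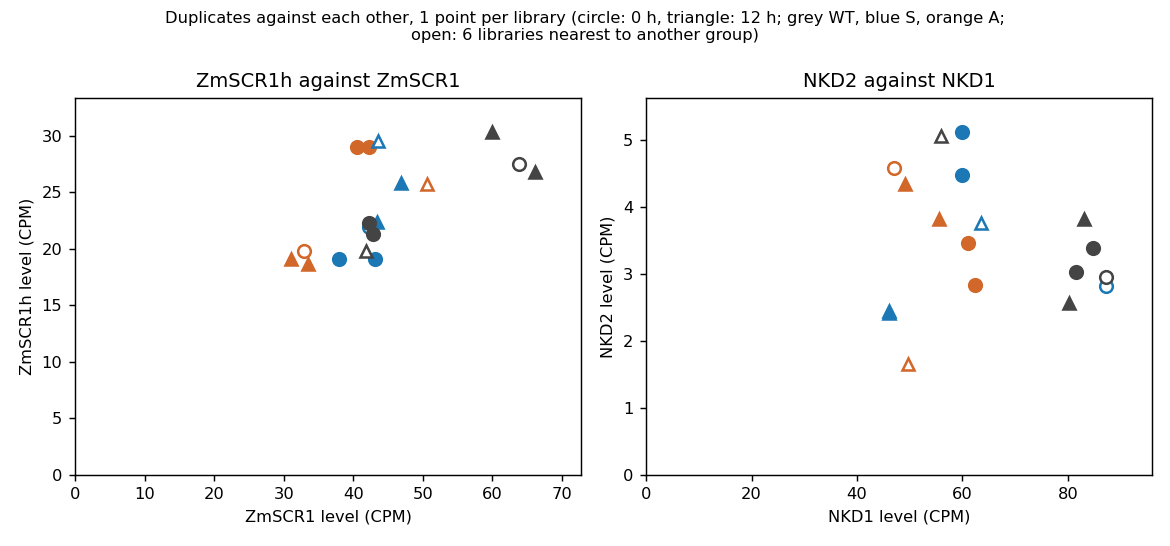
Level (CPM) of ZmSCR1h against ZmSCR1 (left) and of NKD2 against NKD1 (right), 1 point per library, with circles for 0 h and triangles for 12 h, grey for WT, blue for line S and orange for line A, and open points for the 6 libraries nearest to another group. The SCARECROW points ran from lower left to upper right (Pearson correlation 0.67), and the NKD points showed no such run (-0.03).

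The gene most like each member outside the 4 is given by its identifier, as the files pair it with no name. For ZmSCR1 it was Zm00001d018957 (Pearson correlation 0.93 over 18 libraries, 758.0 to 983.0 CPM), and for ZmSCR1h it was Zm00001d023825 (0.94, 4.96 to 12.2 CPM). For NKD1 it was Zm00001d043414 (0.96, 70.0 to 124.0 CPM), which, like NKD1, had its 6 highest libraries in WT_0h, WT_12h replicates 1 and 2 and S_0h replicate 3. For NKD2 it was Zm00001d049881 (0.92, 12.4 to 20.9 CPM), lowest in A_12h replicate 3 as NKD2 was. Each of these genes was picked for its correlation over these same 18 libraries. High values and shared high or low libraries are thus built in and are no separate result. With Spearman correlation the first 3 of these gave way to other genes and the fourth stayed first. The same was so for Pearson correlation among the 12 libraries, where the first 3 were at 0.93, 0.93 and 0.94 and stood at ranks 6, 9 and 21 among the genes other than the members, and the fourth was at 0.92.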

How the data were processed

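The values are whole-number read counts per gene, not normalised, in 1 table deposited by the authors. Per the submitters' processing notes, the build was B73 RefGen_v4, the aligner HISAT2 and the counter featureCounts, with no version, strand setting or rule for multi-mapping reads in the sources used here. Group and replicate came from the library titles. Nothing in the labels tells if replicate libraries are separate pools of plants, and a p-value here reflects the scatter among libraries, which may be technical.

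In edgeR 4.0.16 (R 4.3.3), genes were filtered with filterByExpr (20945 of 28724 kept, all 4 members among them), scaled by TMM (factors 0.975 to 1.023) and fitted with 1 mean per group over 18 libraries (robust quasi-likelihood, 12 residual degrees of freedom). P-values were adjusted by Benjamini-Hochberg over all genes tested, and standard errors came from the fold change and F statistic. The fit was also run on simulated counts, and the outcome is not given here. Those counts held no likeness of libraries across labels, so that run does not bear on it. Ratios used 0.5 added to each count and exact permutation within line or time, and correlations log2 CPM with a prior count of 2. Alternatives were DESeq2 1.42.0, RLE scaling, no filter, the replicate block, only the groups compared, each library left out, and the 6 libraries left out. No 2 libraries agreed within sampling noise (lowest chi-square per gene 3.89 over 153 pairs). The members, the tests and the named-gene rule (the 4 members, and the gene most correlated with each) were chosen with earlier results of these data known. Lists of other root genes fixed by symbol were not used, as 0 Zm00001d identifiers matched the reference table.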

Additional observations from a re-analysis of the deposited data

How the results depend on the processing

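Results without the 6 libraries that resembled another group (added after seeing the data) mostly differed, in a fit whose selection lowers the spread by construction. These passed in that fit and not with all 18 libraries by edgeR, as log2 fold changes. ZmSCR1 was 0.57 in WT_12h against WT_0h, -0.36 in A_12h against A_0h, -0.48 in S_12h and -0.97 in A_12h against WT_12h, and -0.48 in A_12h against S_12h. ZmSCR1h was 0.38, 0.34 and -0.62 for hypoxia in WT, S and A, 0.41 in A_0h against WT_0h, 0.61 in A_0h against S_0h, -0.60 in A_12h against WT_12h, -0.35 in A_12h against S_12h and -0.24 in S_12h against WT_12h. NKD1 was -0.38 and -0.24 for hypoxia in S and A, and -0.47, -0.43, -0.82 and -0.64 against WT in S_0h, A_0h, S_12h and A_12h, and 0.18 in A_12h against S_12h. NKD2 was -0.97 for hypoxia in S, 0.58 in S_0h against WT_0h, -0.60 in A_0h and 0.75 in A_12h against line S. Adjusted p of the difference between lines in response was then 1.98e-07, 1.42e-07, 0.0017 and 0.00119 for ZmSCR1, ZmSCR1h, NKD1 and NKD2, and that of any group difference 1.38e-09 for ZmSCR1, 2.88e-07 for ZmSCR1h and 0.00335 for NKD2. Signs turned for ZmSCR1 (0.03) and NKD1 (0.05) in A_0h against S_0h, ZmSCR1h in S_12h against WT_12h (-0.24), NKD1 in A_12h against S_12h (0.18), NKD2 in A_12h against A_0h (0.37), A_0h against WT_0h (-0.02) and A_12h against WT_12h (0.35), and the NKD1 to NKD2 ratio of A against S (0.04). The ZmSCR1 to ZmSCR1h difference of A against WT was -0.41 and could not pass at that size.

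DESeq2 called NKD1 in A_0h (-0.56) and A_12h (-0.51) against WT. The NKD1 test of any group difference was lost with RLE scaling (adjusted p = 0.0507), no low-count filter (0.0505) and the replicate block (0.104). With the replicate block the ZmSCR1 value in A_12h against A_0h was 0.0, and the ratio difference of A against WT, -0.37, had an adjusted p of 0.25 in an exact sign-flip test (p = 0.0312, the smallest that 64 sign patterns can give), so that test could not pass for it unless other ratios also reached that p. The labels do not say that numbers pair libraries, in 0 of 9 comparisons did every same-numbered pair correlate above 0.1, and in 0 of 9 did every library correlate best with its own number. The fit of only the groups compared and 0 or 1 added to counts changed no call. The causes were not tested.

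With single libraries left out, log2 fold changes of ZmSCR1 ran from -0.26 to 0.12 in A_12h against A_0h, -0.16 to 0.01 in A_0h against S_0h and -0.80 to -0.41 in A_12h against WT_12h. Those of ZmSCR1h ran from -0.03 to 0.27 in WT_12h against WT_0h and -0.14 to 0.15 in S_12h against WT_12h. NKD1 ran from -0.58 to -0.21 for hypoxia in S, -0.66 to -0.39 in S_12h and -0.67 to -0.40 in A_12h against WT_12h, and -0.10 to 0.16 in A_12h against S_12h, with an adjusted p of 0.0109 to 0.106 for any group difference. NKD2 ran from -0.40 to 0.17 in A_12h against A_0h, -0.48 to 0.09 in A_12h against WT_12h and -0.07 to 0.50 in A_12h against S_12h. The ratio differences ran from 0.0 to 0.07 (SCARECROW, time), -0.41 to -0.33 (SCARECROW, A against WT), -0.22 to 0.06 (NKD, time) and -0.30 to 0.12 (NKD, A against S). Of the 36 fold changes, 8 turned sign without some 1 library and 22 others moved by over 1.5 times, among them ZmSCR1 for hypoxia in WT (0.04 to 0.40) and NKD2 in S_0h against WT_0h (0.22 to 0.62). The NKD ratio differences were -0.61 to -0.22 for S and -0.69 to -0.32 for A against WT. NKD2 had the lowest counts of the 4 genes, at 60 in its lowest library, and whether depth widened its spread was not tested.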
